A study of Mus musculus with 6 samples.

Results

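A set of 9 genes that mark excitatory projection neurons of the cerebral cortex were followed in RNA-seq counts of the embryonic mouse brain. They were chosen by name: Tubb3 as a general neuronal gene, Neurod1, Neurod2 and Neurod6 of projection neurons, Tbr1, Bcl11b and Fezf2 of the deep layers, Cux2 of the upper layers, and Reln of Cajal-Retzius cells. Of the 9 genes, 8 had at least 1 RefSeq transcript ID in the count files, and these 8 genes had 9 of the 23485 IDs counted (Cux2 had 2). Reln was not analysed here, since no ID in the files mapped to its symbol. The tissue was whole brain of wild-type C57BL/6 mice at E15.5 (embryonic stage), and each sex had 3 samples. Each sample was RNA pooled from a few embryos sexed by their gonads, so each value is an average over a pool. The comparison asks whether these genes differ between the sexes, and no treatment or mutation was involved.

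The cortex builds its layers from the inside out. Radial glia divide at the ventricle, their daughters pass through an intermediate progenitor stage, and the youngest neurons migrate past the older ones, so that deep-layer neurons are born first and upper-layer neurons later. Cajal-Retzius cells lie at the surface and secrete Reelin, a glycoprotein that binds Vldlr and Lrp8 on migrating neurons and acts through the adaptor Dab1. Tubb3 encodes the neuronal class III beta-tubulin. Neurod1, Neurod2 and Neurod6 encode basic helix-loop-helix factors that act in newly formed and maturing glutamatergic neurons. Tbr1 encodes a T-box factor of corticothalamic and other early-born neurons, Fezf2 a zinc finger factor that specifies subcerebral projection neurons, and Bcl11b (Ctip2) a zinc finger factor of corticospinal neurons that striatal neurons also express.

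Counts of close relatives can be confused when their sequences are alike, so a stretch in which the 3 Neurod genes are alike is shown. The longest identical run of Neurod1 and Neurod2 was widened to 30 bases. It was then set beside the Neurod6 window with the fewest differences from Neurod1. No search for the stretch most alike in all 3 genes was made, and the position of the stretch shown is as follows. The stretch lies in the coding part of exon 2 of 2 in each gene, in the helix-loop-helix region. The positions are on NCBIM37 (mm9), and all 3 genes are on the minus strand. The sequences run 5′ to 3′, and capitals mark the bases that are the same in all 3 genes.
Neurod1, chr2:79294734-79294763: ctTGGCCAAgAAcTACATCTGGGCtCTgTC
Neurod2, chr11:98189127-98189156: ccTGGCCAAgAAcTACATCTGGGCtCTcTC
Neurod6, chr6:55629205-55629234: acTGGCCAAaAAtTACATCTGGGCaCTtTC
Of the 30 bases, 24 were the same in all 3 genes. Neurod1 and Neurod2 differed at 2 bases, Neurod1 and Neurod6 at 6, and Neurod2 and Neurod6 at 5. Over the whole transcripts, the longest run with no difference was 25 bases between Neurod1 and Neurod2, 17 between Neurod1 and Neurod6, and 11 between Neurod2 and Neurod6. The run of 25 lies in the stretch shown, and that of 17 is a purine-rich run outside it.

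The longest run that any of the 6 well-counted genes shared with another annotated gene was 47 bases, between Tubb3 and the beta-tubulin gene Tubb6. It was 23 bases for Fezf2, shared with its paralog Fezf1. All of these runs were shorter than the sequencing reads given in the study's methods. The Fezf2 run lies in the coding part of exon 5 of 5, on the minus strand. It is shown because it is the longest identical run of the 2 zinc finger paralogs.
Fezf2, chr14:13175140-13175162: CACAACGACAAGAAGCCTTTCAC

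Total counts were 4908565 to 10294443 per sample, so that a count of 3, taken as the limit of detection, was 0.291 to 0.611 CPM (counts scaled to a common library total). Xist, the RNA of the inactive X chromosome, was at 1021 to 1428 CPM in the samples labelled female and 0.414 to 1.07 CPM in those labelled male. On the first principal component (53.5% of the variance of log2 CPM over 7231 IDs), the female samples scored -18.6, -21.3 and -4.03 and the male samples 25.3, 12.3 and 6.30, so female sample 3 lay nearest to male sample 3 and male sample 1 lay farthest out. Same-sex samples differed by more than counting noise in every pair (chi-square per degree of freedom 9.03 to 44.9). The 3 samples of a sex were separate pools, and no litter or batch is given.

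The 8 counted members fell into 2 sets by depth. Of these, 6 were well counted: Tubb3 (NM_023279) had 6707 to 19074 counts per sample, Neurod6 (NM_009717) 837 to 1754, Neurod2 (NM_010895) 566 to 1358, Tbr1 (NM_009322) 614 to 1215, Neurod1 (NM_010894) 196 to 373 and Fezf2 (NM_080433) 195 to 347. Bcl11b (NM_001079883) had 3 to 18 counts per sample. Cux2 had 0 to 3 counts on NM_007804 and 0 to 2 on NM_001312908. The upper-layer member was therefore at or under the limit of 3 counts in every sample on each of its IDs, and the Cajal-Retzius member was not measured.

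This split followed the number of curated RefSeq transcripts of a gene. All 6 well-counted members have 1 transcript, while Bcl11b has 3 and Cux2 and Reln have 2 each. Over all genes with an mRNA ID (NM) in the files and a transcript number in the RefSeq table, 52.1% of the 11458 genes with 1 transcript reached a mean of 100 counts, compared with 17.3% of the 5949 genes with 2 or more, and the median of the mean counts was 121 and 5.17. Over the members and 6 further lists of neuronal and Reelin pathway genes, 27 of 27 genes with 1 transcript reached a mean of 100 counts, compared with 8 of 38 with 2 or more. Gapdh, a glycolytic enzyme of every cell, had 0 to 3 counts on NM_008084, and Eomes, the T-box factor of intermediate progenitors, had 0 to 1. The low counts of Bcl11b and Cux2 were for this reason not read as levels of the genes. Whether the transcript number caused the low counts was not tested.

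**Figure D1:**
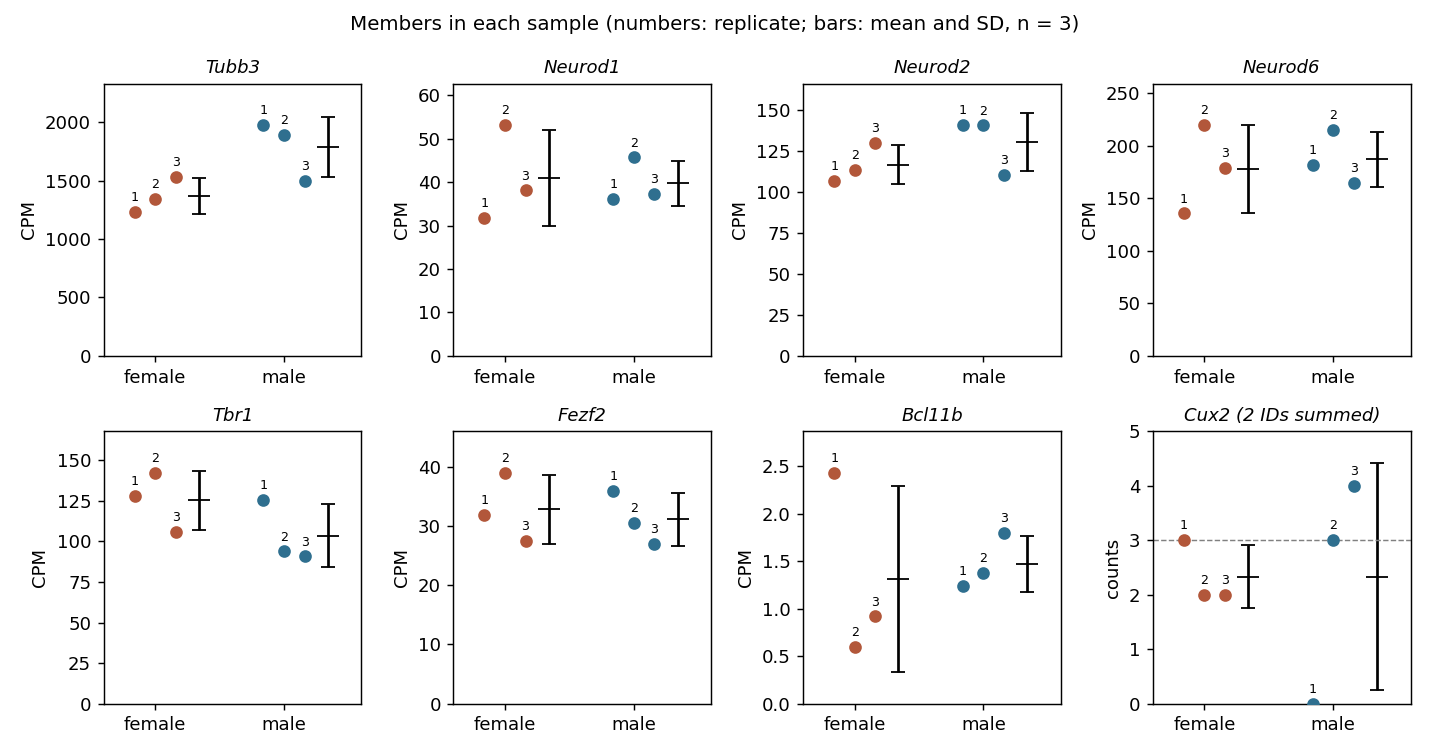
Level of each counted member in the 3 female and 3 male samples, in CPM on a linear axis from 0 (Cux2 in raw counts of its 2 IDs summed, with a dashed line at 3 counts). Points are samples with their replicate numbers, and the bar beside each group is its mean and SD. The groups overlap in every panel, and Cux2 stays at 0 to 4 counts.

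Levels were compared between genes as RPKM, the CPM divided by the length in kilobases of the longest annotated transcript. Tubb3 was the most abundant, at 844 ± 160 RPKM (SD, n = 6), followed by Neurod6 at 84.7 ± 14.7, Neurod2 at 39.3 ± 4.90, Tbr1 at 28.8 ± 5.20, Neurod1 at 14.8 ± 2.83 and Fezf2 at 13.9 ± 2.04. Each of the first 4 exceeded the next in 6 of 6 samples. The log2 difference to the next gene was 3.31 ± 0.27 for Tubb3, 1.10 ± 0.22 for Neurod6, 0.46 ± 0.35 for Neurod2 and 0.96 ± 0.35 for Tbr1. Neurod1 and Fezf2 were not distinguishable, with a log2 difference of 0.08 ± 0.26 and Neurod1 above Fezf2 in 4 of 6 samples. Among the 3 Neurod genes the order was thus Neurod6, Neurod2 and Neurod1, and of the 2 well-counted deep-layer factors Tbr1 was above Fezf2. The highest sample was 1.32 (Neurod2) to 1.67 (Neurod1) times the lowest for each gene.

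Of the 7 members tested, 0 differed between the sexes by edgeR's quasi-likelihood test at an adjusted p under 0.05, where 0.0299% of all 13374 IDs tested did. DESeq2 also called 0, with no adjusted p given for Bcl11b. At an unadjusted p under 0.05 there was 1, Tubb3, which was higher in males. Over all IDs tested, 6.68% passed that limit as higher in males and 4.82% as lower. The CPM of the 3 female and 3 male samples did not separate for any of the 7 members, whereas 8.7% of all IDs separated with males higher and 8.35% with females higher. The fold changes of the members ran from -0.27 to 0.39 on the log2 scale (male minus female), with a median of 0.07 compared with -0.01 over all IDs. Because the tissue was bulk RNA, fewer cells of a type and less RNA per cell cannot be told apart.

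Tubb3 (chromosome 8, 125935324 to 125945915) was at 1229, 1339.7 and 1531 CPM in female samples 1, 2 and 3 and at 1974, 1894 and 1496 CPM in male samples 1, 2 and 3. Male samples 1 and 2 were above every female sample, but female sample 3 was above male sample 3, so the groups overlapped. The mean was 1366 ± 152 CPM in females and 1788 ± 256 in males (SD, n = 3). The log2 fold change was 0.39 (SE 0.14, 95% interval 0.09 to 0.69), with p values by edgeR of 0.0151 unadjusted and 0.356 adjusted. DESeq2 with 1 factor of unwanted variation, the kind of fit closest to the study's own, brought the adjusted p to 0.0440. That fit called 370 of the 13374 IDs tested. The adjusted p ran from 0.0440 to 0.809 over the alternatives. When a trend of the fold change with transcript length was removed, the fold change of Tubb3 fell to 0.23.

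Markers of non-neuronal tissue also varied between the samples. The summed level of 6 skeletal muscle genes was 3393, 3897 and 3741 CPM in the female samples and 2944, 3105 and 3762 CPM in the male samples, so that it was lowest in male samples 1 and 2, where Tubb3 was highest. The ranges of the sexes overlapped (3393 to 3897 and 2944 to 3762 CPM), and 1 of the 7 muscle IDs had a mean under 3 counts. Most of the sum was Myh3, an embryonic myosin heavy chain (2601 CPM in females and 2146 in males), while 4 of the 6 tested muscle IDs had a fold change above 0. The other non-neuronal tissue lists did not share this order. Fibroblast genes summed to 22637, 19028 and 23428 CPM in the female samples and 23516, 17605 and 25899 CPM in the male samples. Cartilage genes summed to 531, 284 and 588 CPM in females and 271, 313 and 529 CPM in males. Erythroid genes summed to 1014, 876 and 753 CPM in females and 1130, 1168 and 630 CPM in males. The part of muscle RNA in the Tubb3 value was not tested.

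Neurod2 (chromosome 11, 98186729 to 98190962) was at 106, 113 and 129 CPM in the female samples and 141, 140.3 and 110.2 CPM in the male samples. Like Tubb3, it was highest in male samples 1 and 2 and its sexes overlapped, with male sample 3 below female samples 2 and 3. The log2 fold change was 0.16 (SE 0.14, 95% interval -0.14 to 0.46, adjusted p 0.669 by edgeR).

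Neurod6 (chromosome 6, 55627812 to 55631257) was at 136, 219.5 and 179 CPM in females and 182, 215 and 164 CPM in males. Neurod1 (chromosome 2, 79292678 to 79296908) was at 31.8, 53.1 and 38.1 CPM in females and 36.2, 45.7 and 37.2 CPM in males. Both were highest in female sample 2 and lowest in female sample 1, with all male samples between them. The log2 fold change was 0.07 for Neurod6 (SE 0.17, 95% interval -0.29 to 0.43, adjusted p 0.896 by edgeR) and -0.04 for Neurod1 (SE 0.19, 95% interval -0.46 to 0.37, adjusted p 0.949 by edgeR). The direction of each turned when single samples were left out.

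Tbr1 (chromosome 2, 61640987 to 61652171) was at 128, 142 and 106 CPM in the female samples and 126, 93.9 and 90.8 CPM in the male samples. It was the member with the lowest fold change. Male samples 2 and 3 were below every female sample, but male sample 1 was close to female sample 1 and above female sample 3. The mean was 125 ± 18.2 CPM in females and 103 ± 19.4 in males (SD, n = 3), and the log2 fold change was -0.27 (SE 0.16, 95% interval -0.62 to 0.07), with p values by edgeR of 0.107 unadjusted and 0.511 adjusted. The adjusted p by edgeR or DESeq2 ran from 0.175 to 0.848 over the 18 alternatives that kept all samples or left out 1.

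Fezf2 (chromosome 14, 13174406 to 13178379) was at 31.9, 39.0 and 27.5 CPM in females and 35.9, 30.6 and 27.0 CPM in males. The highest value was in female sample 2 and the lowest in male sample 3, and the groups overlapped almost fully. The log2 fold change was -0.06 (SE 0.18, 95% interval -0.46 to 0.33, adjusted p 0.914 by edgeR).

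Bcl11b (chromosome 12, 109148613 to 109241812) was counted 15, 3 and 9 times in the female samples and 12, 9 and 18 times in the male samples. The female samples alone spanned nearly the whole range. The log2 fold change was 0.17 with an SE of 0.66, and its 95% interval, -1.25 to 1.58, spanned a larger range than that of any other member tested (adjusted p 0.942 by edgeR). On NM_007804 of Cux2 (chromosome 5, 122308396 to 122500111) the female samples showed 2, 1 and 2 counts and the male samples 0, 3 and 2. On NM_001312908 they showed 1, 1 and 0 and 0, 0 and 2, so no fold change is given. Reln lies on the same chromosome, at 21390272 to 21850523.

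**Figure D2:**
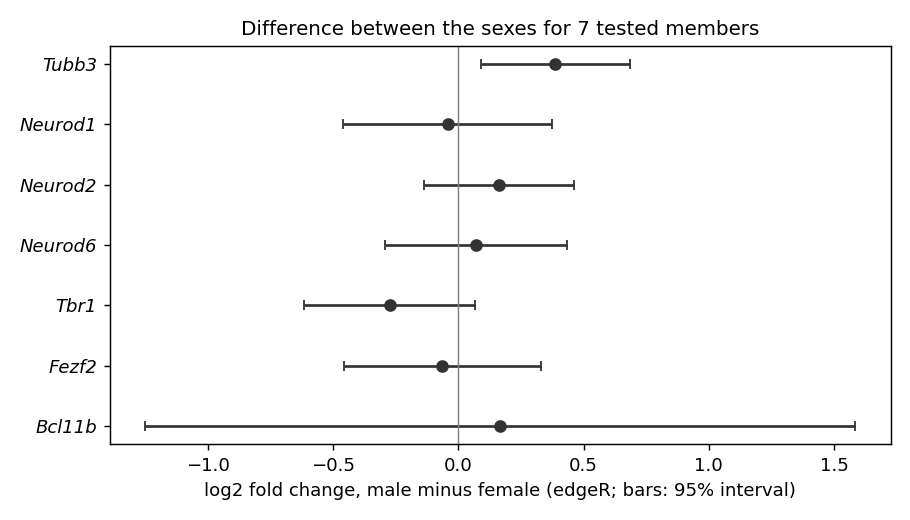
Log2 fold change of the 7 tested members, male minus female, with 95% intervals from edgeR. The interval of Tubb3 (0.09 to 0.69) lies above 0, the other 6 include 0, and that of Bcl11b is the widest.

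Ratios within a sample do not depend on library scaling. The planned ratios of deep-layer to upper-layer and Cajal-Retzius members could not be formed, because Cux2 was at the detection limit and Reln was not counted. Instead, after the counts had been seen, the log2 count ratio was taken for all 15 pairs of the 6 well-counted members. The 3 female and 3 male ratios did not overlap for 4 of the 15 pairs. Among all pairs of IDs that averaged 100 counts or more, 21.9% did not overlap, so the share among the members was near the background.

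The log2 ratio of Tubb3 to Tbr1 was 3.26, 3.23 and 3.85 in the female samples and 3.97, 4.33 and 4.04 in the male samples, with a difference of 0.67 between the means (3.45 ± 0.35 and 4.12 ± 0.19, SD, n = 3). The ratio of Tubb3 to Neurod2 varied least within each sex. It was 3.53, 3.57 and 3.56 in females and 3.81, 3.75 and 3.76 in males, a difference of 0.22. The ratio of Tubb3 to Neurod1 was 0.40 higher in males, and its closest values, in female sample 3 and male sample 3, were 5.33 in both when rounded.

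Between the 2 deep-layer factors, the log2 ratio of Tbr1 to Fezf2 was 2.00, 1.87 and 1.95 in the female samples and 1.81, 1.62 and 1.75 in the male samples. It was 0.22 lower in males (1.94 ± 0.07 in females and 1.72 ± 0.10 in males, SD, n = 3). For each of the 4 pairs the exact two-sided permutation test gave p = 0.1, the smallest value that 3 against 3 samples allow, and p = 0.375 after Benjamini-Hochberg adjustment over the 15 pairs. With the length trend removed, the differences became 0.52 for Tubb3 to Tbr1, 0.35 for Tubb3 to Neurod1, 0.12 for Tubb3 to Neurod2 and -0.10 for Tbr1 to Fezf2. Without female sample 3, 8 of the 15 pairs did not overlap, compared with 42.1% of all ID pairs in the same 5 samples.

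**Figure D3:**
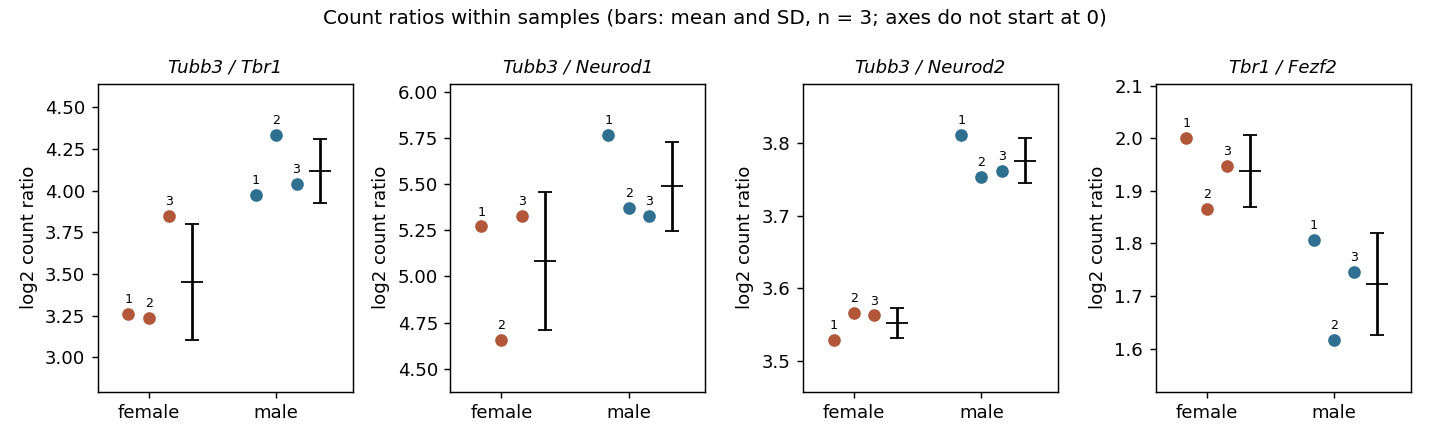
Log2 count ratio within each sample for the 4 pairs whose female and male values did not overlap (points are samples with their replicate numbers, bars beside them are mean and SD of 3, and the axes do not start at 0). Tubb3 is higher relative to Tbr1, Neurod1 and Neurod2 in the male samples, and Tbr1 is lower relative to Fezf2, and female sample 3 is the female value nearest to the males in the panel of Tubb3 to Tbr1.

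The IDs whose pattern over the 6 samples was most like that of Tbr1 were, of 7211 compared, Rap1b (root mean square difference of centred log2 CPM 0.0441), Slitrk4 (0.0551) and Seh1l (0.0627). Among the members, Fezf2 was nearest to Tbr1 (0.128), and the other well-counted members were at 0.3196 to 0.404. These are descriptions over 6 libraries, and no such search was made for Cux2 and Reln.

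To widen the comparison of layers beyond the members, lists of further marker genes were counted. Of 10 other deep-layer genes, 4 IDs could be tested. Of these, 0 were called and 1 had an unadjusted p under 0.05, higher in males, and the list's median was 0.26 on the log2 scale. The list ran from Pcp4, which encodes a calmodulin-binding peptide (-0.02, SE 0.21), to Crym, which encodes a thyroid hormone-binding crystallin (0.56, SE 0.20, adjusted p 0.361 by edgeR). Crym was at 22.5, 16.4 and 29.7 CPM in the female samples and 32.1, 34.9 and 35.5 CPM in the male samples, and the groups did not overlap. The list's summed level was 73.4 to 88.3 CPM in females and 84.1 to 97.7 CPM in males, which overlapped.

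Of 11 other upper-layer genes, 9 IDs were tested and 0 were called. At an unadjusted p under 0.05, 1 was higher in males and 3 were lower, and the list's median was -0.05 on the log2 scale. The highest was Lmo4, a LIM-only transcriptional cofactor (1.06, SE 0.36, adjusted p 0.344 by edgeR), at 4.70, 2.60 and 8.68 CPM in females and 12.6, 13.1 and 9.01 CPM in males. The lowest, of those that averaged 50 counts or more, was Inhba, which encodes the activin beta A subunit (-0.65, SE 0.17, adjusted p 0.338 by edgeR), at 47.6, 44.9 and 39.7 CPM in females and 26.0, 24.2 and 34.02 CPM in males. The groups did not overlap for either gene, and female sample 3 and male sample 3 were the closest in both.

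Another upper-layer ID lower in males at that limit, named after its values were seen, was Pou3f2 (Brn2), a POU-domain factor of upper-layer neurons. It was at 144, 178 and 151 CPM in females and 129.9, 125 and 119 CPM in males, with a log2 fold change of -0.34 (SE 0.13, adjusted p 0.367 by edgeR). The summed level of the list was 788 to 875 CPM in females and 791 to 838 CPM in males.

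Of 10 other Cajal-Retzius genes, 5 IDs were tested, and 0 were called or passed the unadjusted limit in either direction. The median log2 fold change was -0.13. Calb2, which encodes the calcium-binding protein calretinin, was the highest at 0.39 (SE 0.20, adjusted p 0.474 by edgeR), and Ndnf, a secreted factor of these cells, was the lowest at -0.26 (SE 0.15, adjusted p 0.509 by edgeR). The groups overlapped for both. The summed level was 196 to 203 CPM in females and 183 to 205 CPM in males, so the female range lay within the male range. The medians of the 3 layer lists were thus 0.26, -0.05 and -0.13, over 4, 9 and 5 tested IDs. Of the 13 deep-layer, 14 upper-layer and 10 Cajal-Retzius IDs, 6, 5 and 5 averaged under 3 counts. The medians therefore rest on few IDs, and the differences between the lists were not tested.

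The Reelin pathway downstream of the missing ligand was measured at 12 tested IDs, of which 0 were called, 1 was higher and 1 lower in males at an unadjusted p under 0.05, and the median log2 fold change was -0.05. Lrp8, one of the Reelin receptors, was at 65.0, 69.1 and 56.9 CPM in females and 51.5, 39.0 and 52.3 CPM in males on NM_001080926. On the log2 scale its difference was -0.41 (SE 0.16, adjusted p 0.376 by edgeR), and every male sample was below every female sample. Cdk5, the kinase that acts beside the pathway in neuronal migration, was at 60.3, 51.7 and 56.9 CPM in females and 74.3, 78.7 and 60.5 CPM in males. On the log2 scale its difference was 0.34 (SE 0.15, adjusted p 0.405 by edgeR), also with no overlap. Vldlr, the other receptor (NM_013703), was at 0.414 to 1.10 CPM, close to the detection limit. As for Bcl11b and Cux2, this was not read as the level of the gene. In this list, 9 genes have 2 or more curated RefSeq transcripts, and 3 of those 9 reached a mean of 100 counts.

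Among genes of neurons in general, 8 other pan-neuronal IDs were tested, of which 0 were called, 2 were higher in males and 0 lower at an unadjusted p under 0.05, and the list's median was 0.16 on the log2 scale. The 2 were Gap43, a growth cone protein, and Nefl, the light neurofilament chain. Gap43 was at 242, 286 and 388 CPM in females and 436, 552 and 384 CPM in males (log2 fold change 0.58, SE 0.18, adjusted p 0.341 by edgeR). Nefl was at 168, 166 and 227 CPM in females and 268, 285 and 219 CPM in males (0.46, SE 0.15, adjusted p 0.341 by edgeR). In both, as in Tubb3, male samples 1 and 2 were the highest and female sample 3 was above male sample 3. The lowest of the list was Map2, the dendritic microtubule protein (-0.07, SE 0.12, adjusted p 0.838 by edgeR).

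Of the other projection neuron IDs, 6 were tested and 0 were called, 1 was higher in males at an unadjusted p under 0.05 and 0 were lower, and the median log2 fold change was 0.12. That ID was Slc17a7, the vesicular glutamate transporter VGLUT1, at 10.5, 10.4 and 10.3 CPM in females and 19.4, 13.1 and 12.6 CPM in males, with no overlap (0.53, SE 0.23, adjusted p 0.404 by edgeR). Slc17a6, the transporter VGLUT2, was the lowest of those that averaged 50 counts or more, at 0.08 (SE 0.25, adjusted p 0.923 by edgeR). Over the 6 IDs, 5 were above 0 and 1 was below, at -0.51.

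**Figure D4:**
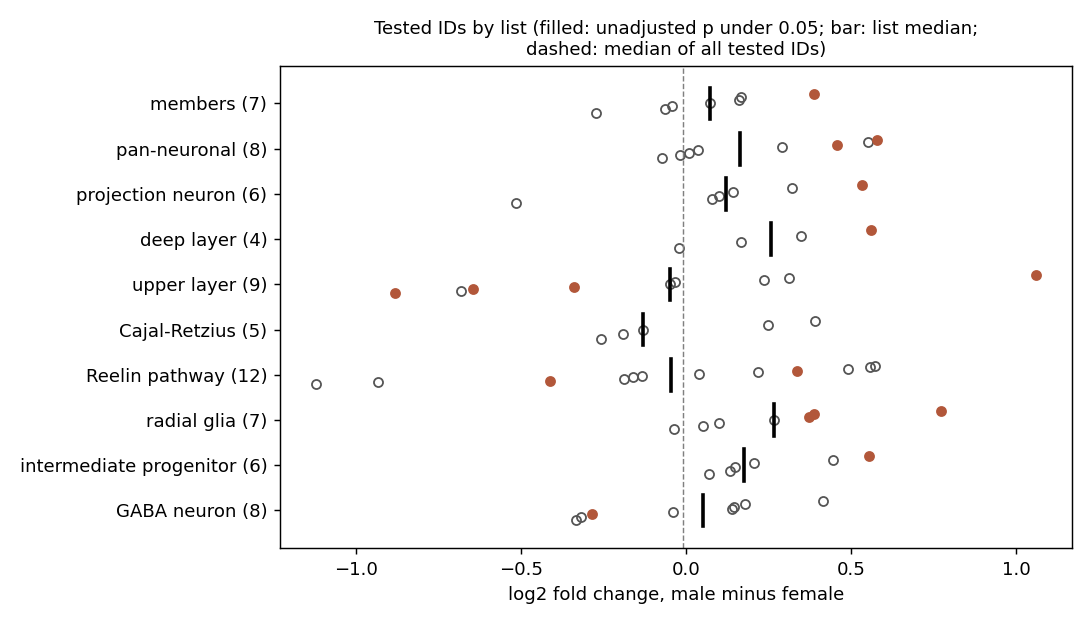
Log2 fold change (male minus female) of each tested ID of the members and 9 lists of related genes, with the number tested in brackets. Filled points have an unadjusted p under 0.05, short bars are list medians, and the dashed line is the median of all tested IDs (-0.01). Every list spans 0 or comes close to it, the deep-layer median is 0.26 over only 4 IDs, and the upper-layer points lie on both sides of 0, up to 1.06.

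The progenitors that give rise to these neurons were also counted. Of 7 radial glia IDs, 0 were called, 3 were higher and 0 lower in males at an unadjusted p under 0.05, and the median log2 fold change was 0.27, from Nes, the intermediate filament nestin (-0.04, SE 0.12), to Hes5, a Notch target (0.77, SE 0.21, adjusted p 0.338 by edgeR). Of 6 intermediate progenitor IDs, 0 were called, 1 was higher and 0 lower, with a median of 0.18, from Neurog2, the proneural factor of the dorsal cortex (0.07, SE 0.18), to Mfng, a glycosyltransferase that modifies Notch (0.55, SE 0.18, adjusted p 0.341 by edgeR). Of 8 IDs of GABA neurons, 0 were called, 0 were higher and 1 lower, with a median of 0.05, from Dlx1 (-0.32) to Slc32a1 (0.41) among those named. The 6 striatal IDs had 0 at that limit in either direction and a median of -0.00, with Six3 the lowest named at -0.23. The 6 of a cerebellar list had 1 lower and a median of 0.04. That 1 was Pax2 (-0.84), which marks GABA interneuron precursors of the cerebellum and not granule cells, and the highest named was Lmx1a (0.25).

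Markers of cells outside the brain were present in all samples. Collagens and other fibroblast genes summed to 19028 to 23428 CPM in females and 17605 to 25899 CPM in males. The pan-neuronal list summed to 3080 to 3556 CPM in females and 3285 to 4291 CPM in males. These sums are of different genes and are not divided by transcript length. They therefore do not give the relative amounts of fibroblast and neuronal RNA. At an unadjusted p under 0.05, 0 of 8 fibroblast IDs, 0 of 4 erythroid IDs and 0 of 6 housekeeping IDs passed in either direction, with medians of -0.04, -0.17 and -0.02. Their named genes ran from Foxc1 (-0.16) to Col3a1 (0.15), up to Hbb-bt (0.22), and from Tbp (-0.06) to Hprt (0.31). Of the cartilage IDs, 2 of 7 IDs were lower in males (median -0.45, from Col9a1 at -0.91 to Col9a2 at -0.14 among those named). Of the muscle IDs, 1 of 6, Myh3 (-0.28), was lower (median 0.09, Myog highest named at 0.25). Cartilage genes summed to 284 to 588 CPM in females and 271 to 529 CPM in males. No ID of these lists was called, and their part in the values of the neuronal genes was not tested.

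**Figure D5:**
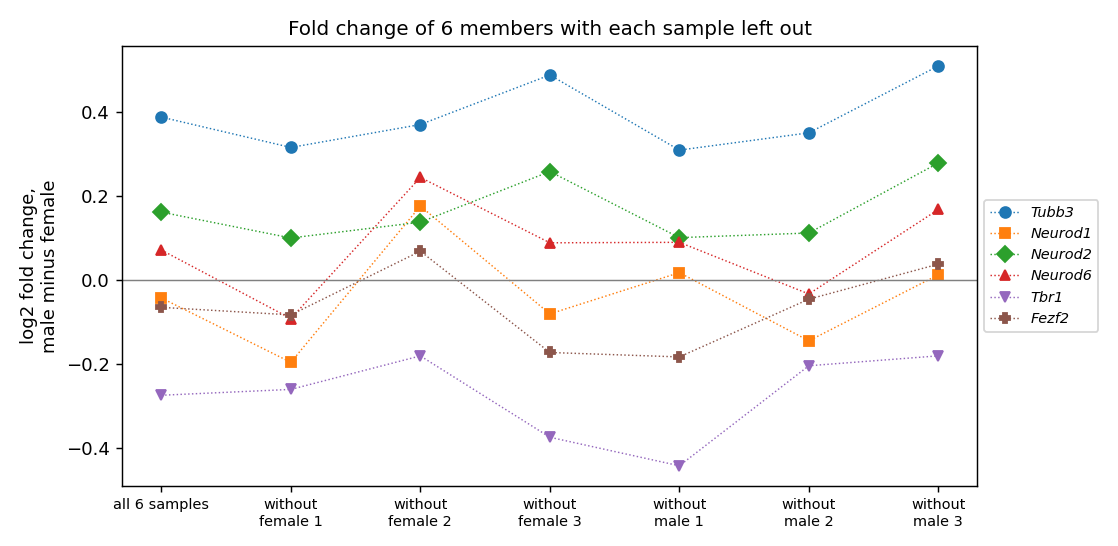
Log2 fold change (male minus female, edgeR) of the 6 well-counted members with all 6 samples and with each sample left out in turn. Tubb3 (0.31 to 0.51) and Neurod2 (0.10 to 0.28) stay above 0 and Tbr1 (-0.44 to -0.18) stays below 0, while Neurod1, Neurod6 and Fezf2 cross 0.

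When each sample was left out in turn, Tubb3 stayed at 0.31 to 0.51 on the log2 scale, Neurod2 at 0.10 to 0.28 and Tbr1 at -0.44 to -0.18. The Tbr1 value was lowest without male sample 1. Neurod6 ran from -0.09 to 0.24, Neurod1 from -0.20 to 0.18 and Fezf2 from -0.18 to 0.07, so that their direction depended on single samples.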

How the data were processed

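Per the submitters' processing notes and the study's methods, the authors trimmed reads with Trimmomatic (0.32), aligned them to mm9 with TopHat2 (2.1.1), assembled transcripts with Cufflinks (2.2.1) and Cuffmerge, and counted reads per transcript with featureCounts (1.5.1). The deposited values are raw counts per RefSeq ID for 3 female and 3 male samples. Library kits were stranded total RNA. The strand setting of the counting is not given in the sources used here.

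Symbols came from a RefSeq table of assembly GRCm38.p6, used for names only, which named 23359 of 23485 IDs and left 126 without a symbol. Positions, exons, sequences and lengths came from NCBIM37, the same assembly as mm9. Promoters and proteins were not used here. IDs with at least 10 counts in at least 1 sample were tested with edgeR (4.0.16, R 4.3.3; TMM factors 0.940 to 1.03, quasi-likelihood F test, Benjamini-Hochberg over 13374 IDs, called at an adjusted p under 0.05). CPM were computed from TMM-scaled totals. Over all IDs, 4 were called (3 higher in males and 1 in females), 1537 had an unadjusted p under 0.05, and DESeq2 (1.42.0) called 107. Ratios used counts plus 0.5 and an exact two-sided permutation test. The edgeR fit was checked on simulated counts with known fold changes. These were larger than the fold changes of the members, so the check does not cover differences of the members' size.

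The members and all 16 further lists (pan-neuronal, projection neuron, deep layer, upper layer, Cajal-Retzius, Reelin pathway, radial glia, intermediate progenitor, GABA neuron, striatal, cerebellar, erythroid, fibroblast, cartilage, muscle and housekeeping) were chosen with earlier results of these data known. All members are named, and so are the highest and lowest fold change of each list, of the IDs that averaged 50 counts or more. Values of a few list genes are not reported here. Alternatives were DESeq2, other scaling factors, other filters, RUVr factors, IDs summed by gene, a length trend removed, a replicate block and each sample left out. Fits without female sample 3 and male sample 1 together, and the 15 pairs, were chosen after seeing the data. Intervals cover the spread between samples, and the limit of 3 counts covers counting error only.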

Additional observations from a re-analysis of the deposited data

How the results depend on the processing

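Tubb3, Neurod2 and Tbr1 kept their direction under all 19 alternatives each. No member was called, except that Tubb3 (0.37) was called by DESeq2 with 1 RUVr factor. That fit called 1 of the 7 members and 370 of the 13374 IDs tested. For these settings, the share of all IDs with an unadjusted p under 0.05 is not given here. The number of members with an unadjusted p under 0.05 was 2 with upper-quartile factors, with 2 RUVr factors in edgeR, with DESeq2 and 1 RUVr factor, and without female sample 3 and male sample 1 together, where Tbr1 joined Tubb3, and it ran from 0 to 2 with each sample left out. Over all IDs, the number called was 107 with DESeq2, 276 with no low-count filter, 1 with at least 10 counts in every sample, 36 and 475 with 1 and 2 RUVr factors in edgeR, 370 with DESeq2 and 1 RUVr factor, 304 without female sample 3 and male sample 1, and 4 to 51 with each sample left out (51 without female sample 3 and 12 without male sample 1). Neurod6 turned to -0.052 with the length trend removed. With single samples left out, Neurod6 ran from -0.092 to 0.24, Neurod1 from -0.20 to 0.18, Fezf2 from -0.18 to 0.069 and Bcl11b from -0.14 to 0.90. The cause of these changes was not tested. Non-overlapping pairs numbered 4 to 8 with each sample left out, 8 of them without female sample 3, while 27.4% to 42.1% of all ID pairs did not overlap in the same settings (42.1% without female sample 3), and there were 4 with 2 added to the counts. The fit without female sample 3 and male sample 1 was chosen after seeing the data and leaves out the samples through which Tbr1 overlapped, so its larger Tbr1 value (-0.56, edgeR adjusted p 0.0567) follows from that choice.

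Same-numbered samples did not deviate together (correlations -0.28, -0.02 and -0.25), and differently numbered ones had correlations of -0.07 to 0.27. With 3 samples per sex, this cannot show whether same-numbered samples shared a litter or batch. The numbers are used here only to name the samples. With the replicate block, 4 IDs and 0 members were called, 1 member had an unadjusted p under 0.05, Tubb3 was at 0.38 and Tbr1 at -0.28. Of the 15 pair ratios, 7 moved one way in all 3 same-numbered pairs, as did 37.9% of all ID pairs, for which the smallest exact sign-flip p is 0.25.

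Depth limited Bcl11b (3 to 18 counts) and Cux2 (0 to 3 on an ID), and an adjusted p above 0.05 in 3 against 3 samples does not show that the sexes were alike.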
